A study of Mus musculus with 3 samples.

Results

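The genes followed here are 45 genes of DNA replication and cell division, 20 that act at the entry into S phase or during it and 25 that act in mitosis, in single cells of the mouse pituitary intermediate lobe (IL). They were chosen by name. Of the 45 genes, 40 had a row in the count table of WT, 45 in that of P27NULL and 44 in that of S2CK, among 15948, 16801 and 17181 gene rows. Cdc6, Uhrf1, Ccnb1, Aurkb and Bub1 had no row in the WT table, and Bub1 had none in the S2CK table. A cell was called mitotic when it held a UMI (unique molecular identifier, the mark of 1 captured transcript) of 3 or more of the 10 genes Mki67, Top2a, Cenpf, Birc5, Cdk1, Ccnb1, Ube2c, Tpx2, Prc1 and Nusap1. This rule found 34 of 9661 cells. "Mitotic" is the name of the rule here and does not place a cell in mitosis itself. Of the 34 cells, 19 also met a rule of S-phase genes given below.

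There was 1 droplet library for each of 3 genotypes, so genotypes are compared library by library, without replicates and without tests. All groups were 3 months old, had been given tamoxifen and carried Sox9iresCreERT2/+, a Cre recombinase that tamoxifen activates in cells expressing Sox9, such as the stem cells (SCs) that line the IL. WT carried nothing further, P27NULL was also p27-/- (no functional Cdkn1b, which encodes the inhibitor p27), and S2CK was p27-/- and Sox2fl/+, so that Cre could remove 1 of its Sox2 alleles. The study's methods add a Rosa26ReYFP reporter to all 3. By the labels, tamoxifen was given at 4 weeks of age. The study's text places it around birth. Each library pooled animals, males for WT and both sexes for the others by the study's description, so animals within a library cannot be told apart.

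Cells divide after copying their DNA in S phase. Cyclin E and E2F1 push a cell from G1 into S phase, the MCM helicase with CDC6, CDC45 and GINS opens the DNA at origins, and PCNA, ribonucleotide reductase and thymidylate synthase serve the synthesis itself. Cyclins A and B with CDK1 then start mitosis, kinesins, centromere proteins and the spindle checkpoint separate the chromosomes, and the anaphase-promoting complex with UBE2C ends it. p27 inhibits cyclin-CDK complexes, and mice without it develop tumors of the IL, whose main endocrine cells are melanotrophs, the makers of the hormone precursor POMC. Most cells of an adult pituitary are not dividing, so transcripts made only during division should sit in a small number of cells.

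Transcription of these genes is timed through short promoter motifs: E2F sites in S-phase genes, and CCAAT boxes with a cell cycle homology region (CHR) in mitotic genes. RefSeq windows of GRCm38.p6 were found for 39 of the 45 genes and were searched over the 250 bases before the start on both strands. The searched letters were CCAAT for the CCAAT box, TTTGAA or TTCGAA for the CHR, and TTTCGCGC, TTTGGCGC or TTTCCCGC for E2F. A CCAAT match was present in 20 of 22 mitosis members (90.9%) and 12 of 17 S-phase members (70.6%), against 37.5% of 27025 genes with a window. At least 2 CCAAT matches were present in 13 of the 22 (59.1%) and 8 of the 17 (47.1%), against 11.5% of all genes. The CHR letters were found in 9 of 22 mitosis members (40.9%), 4 of 17 S-phase members (23.5%) and 19.6% of all genes. E2F letters were found in 7 of 17 S-phase members (41.2%; Mcm5, Mcm6, Mcm7, Cdc6, Uhrf1, Dnmt1 and Hells), in Cdk1 alone of the 22 mitosis members and in 1.78% of all genes. A match is a string of letters and not a measured binding site. Mcm4, Gins2, Ccne2, Ccna2, Aurkb and Tpx2 had no window.

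The 150 bases before the start are printed for 7 genes on which the results below turn, with the matches of these letters on either strand in capitals (ATTGG is CCAAT and TTCAAA is TTTGAA read on the other strand). Ccnb2, Ube2c, Hmmr and Cdk1 are mitosis members and Rrm2 is an S-phase member whose UMIs lay mostly in mitotic cells, Mcm6 is an S-phase member found widely outside them, and Kif22 is the mitosis member least tied to them.
Ccnb2: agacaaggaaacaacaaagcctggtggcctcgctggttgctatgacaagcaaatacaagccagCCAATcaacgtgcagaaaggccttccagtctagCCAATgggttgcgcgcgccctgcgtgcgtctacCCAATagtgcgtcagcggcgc
Ube2c: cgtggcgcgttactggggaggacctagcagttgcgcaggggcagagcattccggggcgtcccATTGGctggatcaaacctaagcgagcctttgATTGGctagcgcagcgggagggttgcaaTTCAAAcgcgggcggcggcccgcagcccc
Hmmr: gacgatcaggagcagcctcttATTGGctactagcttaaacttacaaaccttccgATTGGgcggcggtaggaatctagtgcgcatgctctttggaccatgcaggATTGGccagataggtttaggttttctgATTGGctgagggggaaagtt
Cdk1: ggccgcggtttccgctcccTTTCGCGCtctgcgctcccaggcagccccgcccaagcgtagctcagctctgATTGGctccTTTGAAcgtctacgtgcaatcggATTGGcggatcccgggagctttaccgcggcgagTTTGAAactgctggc
Rrm2: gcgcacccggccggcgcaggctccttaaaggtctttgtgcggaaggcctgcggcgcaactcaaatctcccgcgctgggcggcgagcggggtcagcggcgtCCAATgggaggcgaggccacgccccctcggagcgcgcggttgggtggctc
Mcm6: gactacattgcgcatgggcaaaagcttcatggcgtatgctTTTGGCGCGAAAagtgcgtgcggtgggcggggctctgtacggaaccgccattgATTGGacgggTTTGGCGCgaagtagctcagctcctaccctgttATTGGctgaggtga
Kif22: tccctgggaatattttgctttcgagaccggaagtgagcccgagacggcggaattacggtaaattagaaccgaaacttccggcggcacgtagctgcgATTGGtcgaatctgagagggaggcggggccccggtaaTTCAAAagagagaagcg
These windows lie at chr9:70421555-70421704 on the minus strand (Ccnb2), chr2:164769779-164769928 on the plus strand (Ube2c), chr11:40733438-40733587 on the minus strand (Hmmr), chr10:69352913-69353062 on the minus strand (Cdk1), chr12:24708104-24708253 on the plus strand (Rrm2), chr1:128359706-128359855 on the minus strand (Mcm6) and chr7:127042421-127042570 on the minus strand (Kif22). Hmmr showed 4 CCAAT matches in the stretch, Ccnb2 3, Ube2c, Cdk1 and Mcm6 2 each, and Rrm2 and Kif22 1 each. Of the 7, Cdk1 alone had all 3 kinds of match. In Mcm6 there were 3 E2F matches, a pair of which overlap. Kif22 carried 1 CCAAT and 1 CHR match, while Ccnb2 and Hmmr had no CHR match in the printed stretch. By their gene spans, Kif22 reaches to base 127042467 and Hmmr to base 40733464, so the ends of these stretches lie inside the genes. The CHR match of Kif22 and the last CCAAT match of Hmmr are in those ends.

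The libraries held 2020, 4153 and 3488 cells and 8332285, 15588317 and 19239147 UMIs for WT, P27NULL and S2CK, with 2740 to 4906.5 UMIs per cell at the median, and WT alone held cells under 1000 UMIs. Members took 3108, 7484 and 7162 UMIs, or 373, 480 and 372 CPM (UMIs of a gene scaled to the same total of all UMIs). Between any pair of libraries 2 to 4 cell barcodes were shared. Clusters were named from marker genes and are called "-like". All 7 melanotroph markers and all 6 SC markers were found in the clusters named for them in each library, which the naming made likely. Melanotroph markers summed to 5463, 7201 and 3550 CPM in melanotroph-like cells of WT, P27NULL and S2CK. In all other cells, unnamed ones included, they summed to 701, 4222 and 1910 CPM. SC markers summed to 9663, 8377 and 5062 CPM in SC-like cells and to 64.6, 65.1 and 35.2 CPM in all others. The targeted gene Cdkn1b stood at 34.2 CPM (29.7 to 39.2) in melanotroph-like cells of WT and 17.3 CPM in those of S2CK. In the library labelled P27NULL it was at 30.3 CPM (27.3 to 33.5), an interval that overlaps that of WT, so each direction drawn from P27NULL carries this limit. Sex also differed. Melanotroph-like cells of S2CK were 95.8% female by their Xist and Y-linked UMIs, those of WT were 100% male, and those of P27NULL were 83.9% male and 15.8% female. Genotype and sex cannot be told apart for S2CK against WT. Intervals below are exact 95% Poisson or binomial intervals and cover counting error only. UMIs of 1 cell are not independent, so the intervals of sums are too narrow.

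Mitotic cells were rare in every library. They were 6 of 2020 cells in WT (0.297%, 0.109 to 0.645%), 17 of 4153 in the library labelled P27NULL (0.409%, 0.239 to 0.655%) and 11 of 3488 in S2CK (0.315%, 0.158 to 0.564%). All 3 intervals overlapped. After thinning of each cell to 1000 UMIs, which kept 1858 of the 2020 WT cells and every cell of the other libraries, the counts were 4, 12 and 4 cells. The 34 cells were 0.352% of all cells and held 0.402% of all UMIs. None of them was among the cells with the highest doublet scores. The doublet caller had not worked, however, so this does not tell whether any of them were doublets. Most cells held no UMI of the 10 genes at all, with 1956, 3975 and 3336 such cells in WT, P27NULL and S2CK.

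The mitotic cells were spread over cell types unlike the cells as a whole. Melanotroph-like cells were 74.5% of all cells but 38.2% of mitotic cells (13 of 34), a share of 0.181% (0.0962 to 0.309%) of melanotroph-like cells. Endothelial-like cells, which line vessels, gave 8 mitotic cells of 144 (5.56%, 2.43 to 10.7%), and T or NK-like cells gave 7 of 148 (4.73%, 1.92 to 9.50%). Macrophage or microglia-like cells gave 5 of 301 (1.66%, 0.542 to 3.83%). With the cells of all genotypes pooled, the intervals of these 3 types lay above that of melanotroph-like cells. Within S2CK all 3 also lay above it. In WT all 3 overlapped it, and in P27NULL that of macrophage or microglia-like cells did. The single mitotic SC-like cell among 336 (0.298%, 0.00753 to 1.65%) came from S2CK. No mitotic cell was found among 354 corticotroph-like, 213 gonadotroph-like, 130 Pou1f1 lineage-like, 142 connective tissue-like and 59 pituicyte-like cells, nor among 639 cells without a name. In corticotroph-like cells 3.66%, 4.50% and 5.06% had a UMI of at least 1 of the 10 genes in WT, P27NULL and S2CK, against 2.48%, 4.13% and 4.07% in melanotroph-like cells, so a UMI of a single mitotic gene did not separate these types.

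**Figure D1:**
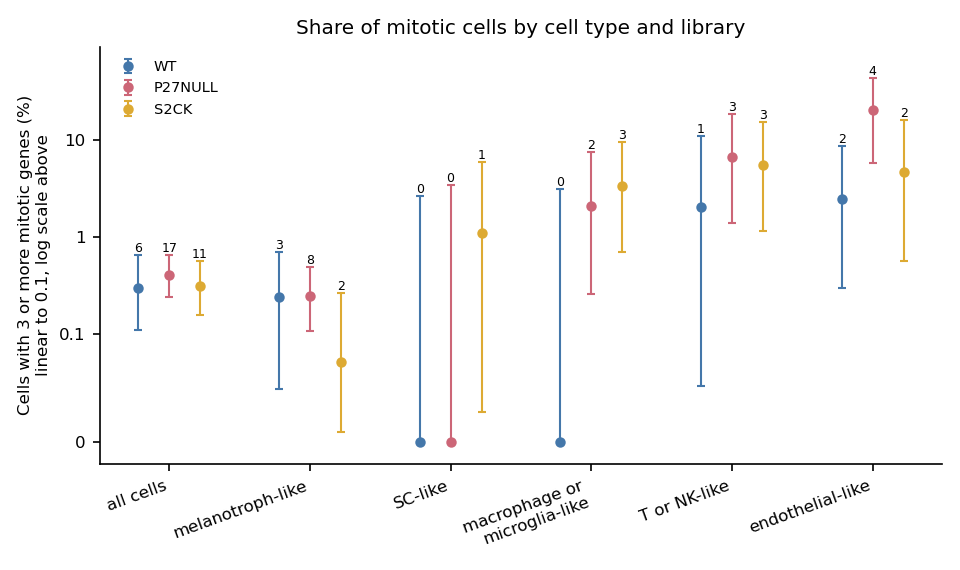
Percent of cells with a UMI in 3 or more of the 10 mitotic genes (y axis, linear up to 0.1 and logarithmic above) in each library for all cells and 5 cell types, with exact 95% binomial intervals and the number of mitotic cells printed over each. Melanotroph-like cells sit near 0.2% in WT (3 cells) and P27NULL (8 cells) and lower in S2CK (2 cells), while endothelial-like and T or NK-like cells sit above 2% in every library.

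Among melanotroph-like cells the counts were 3 of 1249 in WT (0.2402%, 0.0496 to 0.7003%), 8 of 3244 in the library labelled P27NULL (0.247%, 0.107 to 0.485%) and 2 of 2702 in S2CK (0.0740%, 0.00897 to 0.267%). S2CK was the lowest, and the 3 intervals overlapped. Within P27NULL 2 of 513 female-called melanotroph-like cells (0.390%) and 6 of 2723 male-called ones (0.2203%) were mitotic. In S2CK the figures were 2 of 2589 female-called and 0 of 113 male-called cells. The mitotic cells fell into few clusters, since all 3 of WT lay in a cluster of 285 cells, 7 of the 8 of P27NULL in a cluster of 450 and both of S2CK in a cluster of 523. In WT and P27NULL these were the deepest melanotroph-like clusters, with medians of 6433 and 5569 UMIs per cell against at most 4263 and 4247.5 in the others. The cluster of S2CK, at 5022 UMIs, lay within the range of the others (4354 to 6086). The mitotic melanotroph-like cells themselves had medians of 7859, 3212 and 8013.5 UMIs in WT, P27NULL and S2CK. All melanotroph-like cells had medians of 4186, 2736 and 5015.5 UMIs. A rule of 3 detected genes can depend on depth, and its part in where mitotic cells fell was not tested. In endothelial-like cells there were 2 of 81, 4 of 20 and 2 of 43 mitotic cells, and the 20 cells of P27NULL took their name from the clustering of all libraries together. T or NK-like cells gave 1 of 49, 3 of 45 and 3 of 54. A cell of S2CK among these 3 held no T or NK marker and 4 macrophage markers. T or NK markers summed to 2799, 611 and 1993 CPM in the T or NK-like cells of WT, P27NULL and S2CK. The melanotroph marker Pcsk2 stood at 1647, 2793 and 697 CPM there, so this name is least sure in P27NULL. Macrophage or microglia-like cells gave 0 of 117 in WT, which allows a share of up to 3.10%, and 2 of 95 and 3 of 89 in the other libraries. SC-like cells gave 0 of 139 in WT (up to 2.62%), 0 of 105 in P27NULL (up to 3.45%) and 1 of 92 in S2CK. That SC-like cell held 6022 UMIs, 1 SC marker and 2 pituicyte markers, and was pituicyte-like when the libraries were clustered together.

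The strength of the signal varied widely among the 34 cells. They held 3 to 115 UMIs of the 10 genes (median 11.5) in a total of 1532 to 12997 UMIs, and 23 of them had 5 or more of the 10 genes. At the threshold, the 7 cells with exactly 3 genes held 3 to 6 mitotic UMIs and a median of 9 of the other 35 members. The 12 cells with exactly 2 genes held 2 to 4 mitotic UMIs and a median of 2 other members, at a median depth of 6569 UMIs against 6022. The strongest cell was a melanotroph-like cell of P27NULL with all 10 genes, 115 mitotic UMIs, 24 other members and 16.9% of its 12017 UMIs from Pomc.

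**Figure D2:**
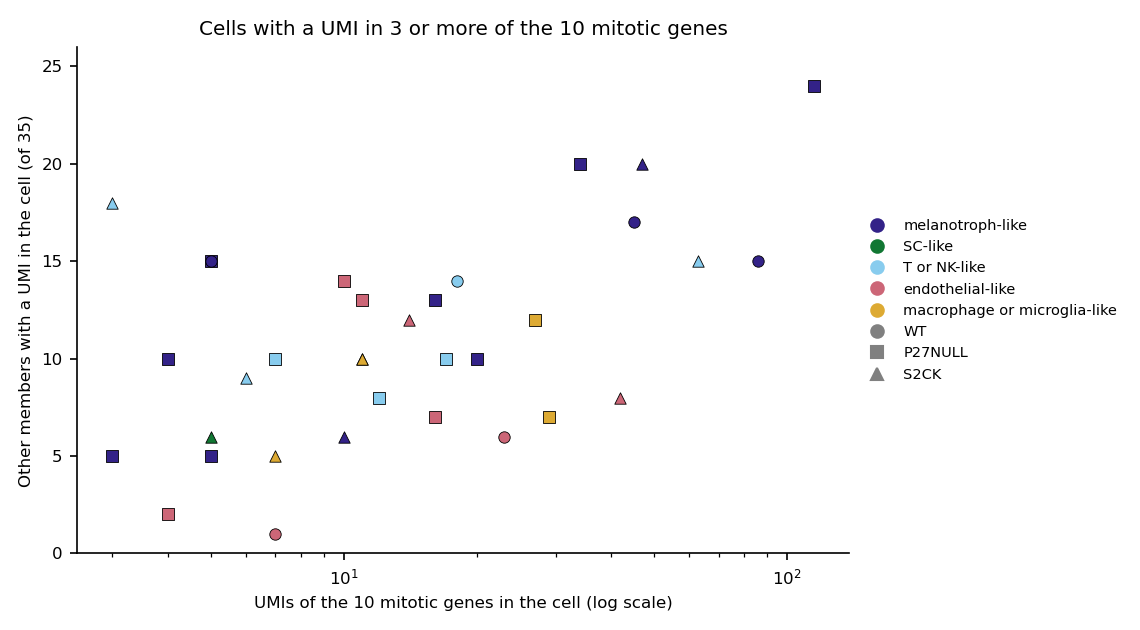
Each of the 34 mitotic cells by its UMIs of the 10 mitotic genes (x axis, log scale) and the number of the other 35 members with a UMI in it (y axis), with colour for cell type and shape for library (at 5 UMIs and 15 members a WT and a P27NULL cell coincide). Melanotroph-like cells span the whole range, from 3 to 115 UMIs and from 5 to 24 other members.

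The other 35 members were not used to find these cells, and nearly all were enriched in them. To allow for cell type and library, the UMIs of each gene in mitotic cells were set against those that the same number of UMIs would hold at the rate of the other cells of the same type and library. The ratio had an interval above 1 for 32 of the 35 members and was 10 or more for 19. It was across 1 for Mcm4 (1.92, 0.625 to 4.49) and Kif22 (1.18, 0.646 to 1.98), below 1 for none, and could not be formed for Bub1, whose 5 UMIs all lay in mitotic cells. This ratio was not formed for all genes, so no background share stands beside these counts. Outside the list, 562 genes had at least 20 UMIs in mitotic melanotroph-like cells. Of these, 259 were higher there than in other melanotroph-like cells, in both libraries with 3 or more mitotic ones.

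Mitosis members led. For Hmmr, a spindle-binding protein, 38 of 41 UMIs (92.7%) lay in the 34 mitotic cells. Ccnb2, a cyclin B that activates CDK1, had 52 of 72 UMIs (72.2%) there, 180 times the rate of like cells (134 to 236). Aurkb, the kinase of the chromosomal passenger complex, had 70.6%, and the spindle motor Kif11 57.1%. Ccna2 (cyclin A) stood at 48.7%, the mitotic kinase Plk1 at 45.5%, the centromeric histone Cenpa at 38.8%, the kinetochore motor Cenpe at 38.1%, the midzone kinesin Kif23 at 34.7% and the centrosomal kinase Aurka at 20.8%. Cks2, a CDK-binding protein, had 62 of 469 UMIs (13.2%) in mitotic cells, 33.1 times the rate of like cells (25.4 to 42.4), and the checkpoint gene Bub1b also 13.2%. So nearly all UMIs of Hmmr lay in mitotic cells, and most of those of Cks2 did not. Hmmr had a UMI in only 3, 9 and 5 cells of WT, P27NULL and S2CK, so its share rests on few cells.

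S-phase members were spread more widely. In total 346 of their UMIs (3.58%) lay in mitotic cells, against 374 (5.40%) of the mitosis members outside the 10 genes, and 31.5% of those once Kif22 and Cdc25b were set aside. Rrm2, the regulated subunit of ribonucleotide reductase, stood apart from the rest with 50 of 58 UMIs (86.2%), 140 times the rate of like cells (104 to 185). Uhrf1, which guides maintenance of DNA methylation, had 50% of 12 UMIs there, the origin licensing gene Cdc6 28.6% of 14, the chromatin remodeller Hells 13.8% of 217 and Mcm3 12.1% of 116. At the low end were Pcna (2.71%), Mcm7 (2.69%), Mcm2 (2.36%), Slbp (2.10%), which binds histone mRNA, Ccne2 (1.72%), the maintenance methyltransferase Dnmt1 (1.26%) and Mcm4 (0.856%). These 7 S-phase genes were therefore counted almost wholly outside the mitotic cells.

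Kif22 and Cdc25b were the exceptions among the mitosis members. Kif22, a chromosome-arm kinesin, had 14 of 4179 UMIs (0.335%) in mitotic cells, below these cells' 0.402% share of all UMIs. Cdc25b, a phosphatase that activates CDK1, had 0.850% of 1648 UMIs there, 3.51 times the rate of like cells (1.92 to 5.90). Kif22 and Cdc25b together made up most UMIs of the mitosis members in melanotroph-like cells, so sums of mitosis members are given with and without them.

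**Figure D3:**
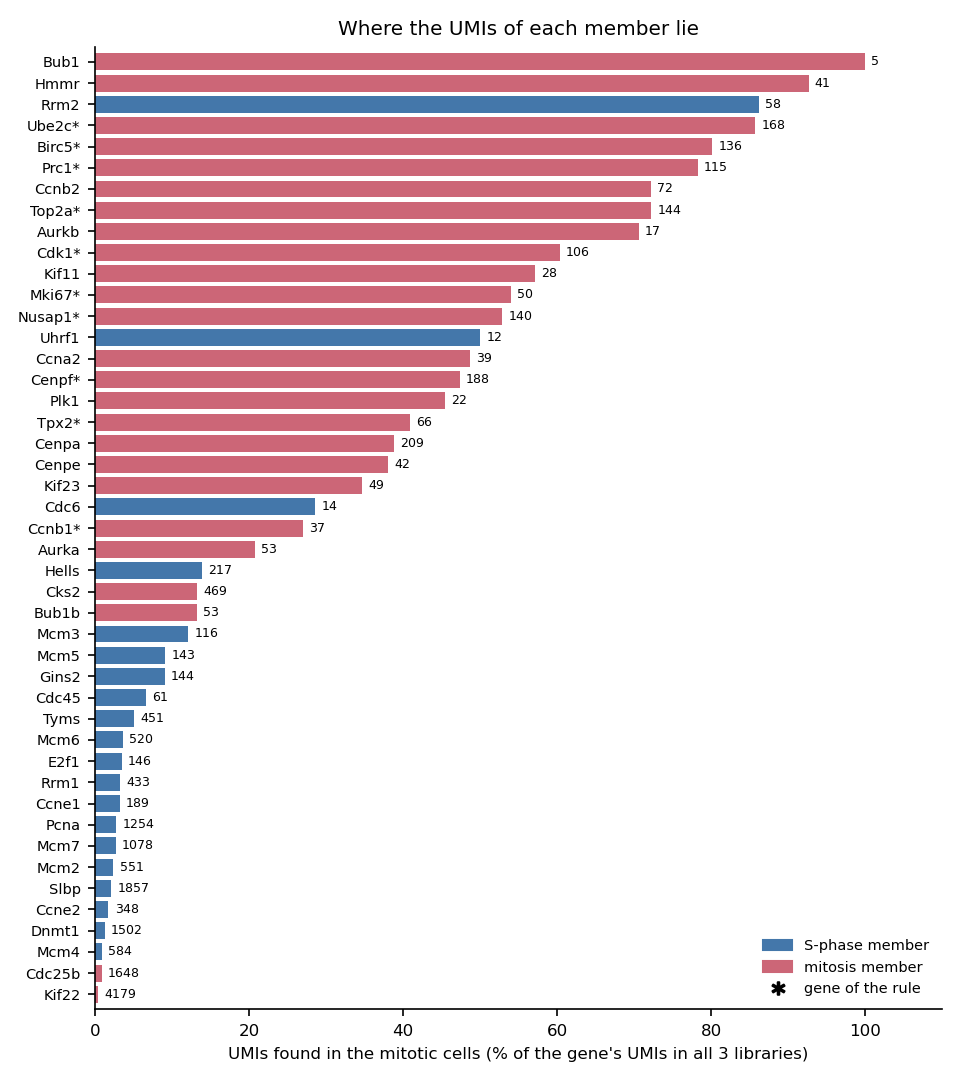
For each of the 45 members, the percent of its UMIs that lay in the 34 mitotic cells, over all 3 libraries (bars; blue for S-phase members, red for mitosis members, a star for the 10 genes that chose the cells), with its total UMIs printed beside the bar. Bub1, Hmmr and Rrm2 are at the top among genes not used for the choice, and Kif22 and Cdc25b are at the bottom in spite of 4179 and 1648 UMIs.

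The same held within melanotroph-like cells. The 13 mitotic ones had a UMI in 5 to 24 of the other 35 members, with medians of 15 in WT, 11.5 in P27NULL and 13 in S2CK, against a median of 1 in each library for melanotroph-like cells without any of the 10 genes. The highest of the latter held 7, 11 and 11 other members and the lowest mitotic ones 15, 5 and 6, so the ranges overlapped in P27NULL and S2CK. Depth was not matched between these sets. All 35 had at least 1 UMI in these 13 cells. Hmmr had 6 UMIs in mitotic cells and 0 in the others in WT, 17 and 2 in P27NULL, and 4 and 0 in S2CK. Rrm2 had 12 and 0, 5 and 1, and 6 and 2 in the same order. For Ccnb2 the counts were 5 and 4, 11 and 4, and 6 and 3. All 3 genes were thus higher in mitotic cells in every library, although these held 79625 UMIs, a small part of the total. Hells was higher in WT (7 and 19 UMIs) and P27NULL (13 and 70), while S2CK had 0 and 51. Pcna stood at 239 CPM in mitotic and 27.3 CPM in other melanotroph-like cells over the libraries, a log2 ratio of 3.13 (2.39 to 3.78). For Kif22 the values were 126 and 108 CPM (0.22, -0.84 to 1.10), with more in mitotic cells of P27NULL only.

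Mitotic melanotroph-like cells held hormone transcripts, with no direction against the other melanotroph-like cells that all libraries shared. Pomc was higher in mitotic cells of P27NULL (141411 CPM, 137588 to 145314, against 130447) and lower in those of WT (160140, 155396 to 164991, against 173754) and S2CK (108068, 103038 to 113280, against 137048), and it took 3.03 to 24.7% of the UMIs of single mitotic cells. In endothelial-like cells, which should not make it, Pomc had a UMI in 91.4%, 95% and 100% of cells of WT, P27NULL and S2CK. It stood there at 3923, 3742 and 26404 CPM, at median depths of 1069, 2197.5 and 2134 UMIs. A Pomc UMI alone thus did not set melanotroph-like cells apart. Whether free RNA, from outside the cell in the droplet, gave these UMIs was not tested. Pcsk2, which encodes a convertase that cuts POMC, was higher in mitotic cells of WT (4789 against 4277 CPM) and lower in those of P27NULL (4692 against 5645) and S2CK (811 against 2450). Pax7, which sets melanotroph identity, was lower in the mitotic cells of all 3 libraries, at 87.9 against 199 CPM (-1.18, -2.49 to -0.13), on 7 UMIs. The secretory granule genes Scg2 (-0.73, -1.17 to -0.32) and Chgb (-0.60, -1.03 to -0.20) were also lower in each library. Scg5 was lower over the libraries together (-0.56, -0.98 to -0.17) and in 2 of 3 of them, and Chga was at 0.21 (-0.01 to 0.42). Cdkn1b had 5 UMIs in mitotic melanotroph-like cells (log2 ratio 1.33, -0.29 to 2.56).

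Genes outside the list were ranked by their ratio in mitotic against other melanotroph-like cells, among those with at least 20 UMIs in the mitotic cells and a higher level there in both libraries with 3 or more such cells. A gene could pass this filter through the mitotic cells alone, so the ranking is a description and supports nothing. Among the 15 with the largest ratio were Pbk, Pclaf, Cdca3, Spc25, Hist1h2ap, Cenpm, Hist1h1b, Hist1h2ae, Cenpw, Spc24, Hmgb2, Lockd, Ube2t and Atad2. They include kinetochore genes (Spc25, Spc24, Cenpm, Cenpw), replication-dependent histones (Hist1h2ap, Hist1h1b, Hist1h2ae) and the PCNA-associated factor Pclaf. Pbk, a mitotic kinase, had 25 UMIs in mitotic and 2 in all other melanotroph-like cells. The histone Hist1h2ap had 98 and 183, of which 83 and 134 were from P27NULL.

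Cells could also be chosen by S-phase genes. A UMI of 3 or more of Mcm3, Mcm5, Mcm6, Tyms, Rrm2, Gins2, Cdc6, Cdc45, Uhrf1 and Hells was found in 8 cells of WT (0.396%, 0.171 to 0.779%), 20 of P27NULL (0.482%, 0.294 to 0.743%) and 13 of S2CK (0.373%, 0.199 to 0.636%), with overlapping intervals. Of these 41 cells 19 were also mitotic cells, 46.3% of the S-phase set and 55.9% of the mitotic set. Melanotroph-like cells gave 5, 10 and 4 of them and SC-like cells 0, 2 and 2. In cells thinned to 1000 UMIs the counts were 0, 3 and 1, against 4, 12 and 4 mitotic cells in the same thinned cells.

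Between genotypes, members were compared as CPM summed over the melanotroph-like cells of each library, 6017859 UMIs in WT, 12157101 in P27NULL and 15376939 in S2CK. With 1 library each, genes were compared by fold alone. A gene was compared when it had a row in both tables and at least 20 UMIs in both libraries together, and counted as higher or lower at 1.5-fold. For P27NULL against WT 34 members were compared, of which 7 were higher (background 10.9% of all genes compared) and 3 lower (background 4.49%). For S2CK against P27NULL 37 were compared, of which 1 was higher (background 5.37%) and 16 lower (background 14.5%). For S2CK against WT 32 were compared, of which 3 were higher (background 8.62%) and 9 lower (background 9.51%). These comparisons share libraries and are not independent. Median log2 ratios of the members were 0.19, -0.35 and -0.12, beside 0.10, -0.14 and -0.03 over all genes compared, so S2CK against P27NULL is read against a general shift of -0.14. Scaled by TMM factors, 3 members were higher and 3 lower in P27NULL than in WT, and the other counts were 1 and 15, and 3 and 9. Without the mitotic cells, the counts higher and lower were 9 and 1 of 24, 2 and 9 of 28, and 5 and 2 of 23 in the same order. Background shares were not formed with TMM factors or without the mitotic cells.

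The sum of the replication helicase genes was higher in P27NULL than in WT, and this lay in its male-called cells. Summed over Mcm2 to Mcm7, Cdc6, Cdc45 and Gins2 they stood at 61.0 CPM in WT, 80.3 in P27NULL and 70.2 in S2CK, with P27NULL above WT by a log2 ratio of 0.40 (0.22 to 0.57) and S2CK below P27NULL (-0.19, -0.32 to -0.07). Male-called P27NULL cells were at 85.1 CPM (79.5 to 91.1) and female-called ones at 58.7 CPM (49.1 to 69.7), an interval that overlaps that of WT. Gins2, a subunit of the GINS complex, had 8, 39 and 48 UMIs (1.33, 3.21 and 3.12 CPM), a log2 ratio of 1.27 (0.15 to 2.58) for P27NULL and 1.23 (0.14 to 2.52) for S2CK, each against WT. Both mutant libraries were thus above WT for this gene. Mcm5 (2.33, 3.54 and 2.73 CPM) passed 1.5-fold in P27NULL against WT with an interval across 0 (0.60, -0.29 to 1.59). Mcm3 (2.33, 2.71 and 1.76 CPM) passed it downward in S2CK against P27NULL (-0.63, -1.42 to 0.15), again across 0. The other helicase genes compared stayed within 1.5-fold in all 3 comparisons. Mcm7 was at 22.4, 29.2 and 23.3 CPM, Mcm2 at 10.8, 15.4 and 12.03, Mcm4 at 10.3, 15.0 and 13.3 and Mcm6 at 10.1, 9.38 and 12.7. Cdc45 had 8, 17 and 19 UMIs. Cdc6 had 6 UMIs in P27NULL, 0 in S2CK and no row for WT. In the GRCm38.p6 annotation Mcm7 overlaps Ap4m1 and Gins2 (chr8:120581266-120589075) overlaps Gse1, and reads of overlapping genes may not have been told apart.

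DNA synthesis genes lay close together in the 3 libraries, except Rrm2. Pcna, the sliding clamp, stood at 28.2, 25.9 and 29.2 CPM in the order WT, P27NULL, S2CK, Tyms (thymidylate synthase) at 9.14, 10.5 and 10.3, and Rrm1, the other ribonucleotide reductase subunit, at 10.5, 10.6 and 9.36. No interval of these 3 genes left 0 in any comparison. Rrm2 had 12 UMIs in 3 cells of WT, 6 UMIs in 4 cells of P27NULL and 8 UMIs in 3 cells of S2CK. It was lower in S2CK than in WT (log2 -1.94, -3.43 to -0.53), and all 12 WT UMIs were in the 3 mitotic cells. Rrm2 had too few UMIs to be compared for P27NULL against WT. Chromatin copying genes were close as well, at 37.9, 39.3 and 42.9 CPM for Slbp and 35.6, 39.9 and 32.3 for Dnmt1. Hells passed the fold, at 4.32, 6.83 and 3.32 CPM, higher in P27NULL than in WT (0.66, 0.01 to 1.36) and lower in S2CK than in P27NULL (-1.04, -1.57 to -0.52). Within P27NULL, Hells was at 7.83 CPM in male-called and 2.24 CPM in female-called cells, and S2CK against the female-called cells gave 0.57 (-0.75 to 2.25), the opposite direction. Uhrf1 had 5 UMIs in P27NULL and 3 in S2CK.

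Among the drivers of S-phase entry, E2f1, a transcription factor of S-phase genes, stood at 2.33, 5.43 and 2.67 CPM (14, 66 and 41 UMIs). It was higher in P27NULL than in WT (1.22, 0.38 to 2.17) and lower in S2CK than in P27NULL (-1.03, -1.62 to -0.44). Against the female-called cells of P27NULL, where it was at 2.69 CPM on 6 UMIs, S2CK was level with it (-0.01, -1.26 to 1.52). Ccne2 (cyclin E2) was at 10.5, 12.3 and 5.46 CPM, lower in S2CK than in P27NULL (-1.17, -1.57 to -0.77) and than in WT (-0.94, -1.43 to -0.44). This held against female-called P27NULL cells (-1.09, -1.74 to -0.40), and 82 cells carried the 84 UMIs of S2CK, so no single cell set the value. Ccne1 (cyclin E1) was at 6.48, 4.195 and 4.36 CPM and passed 1.5-fold downward in P27NULL against WT with an interval reaching 0 (-0.63, -1.26 to 0.01). So Ccne2 was lowest in S2CK, whereas Ccne1 was highest in WT and close in both mutants. In the annotation E2f1 (chr2:154559400-154569892) overlaps Necab3, and Ccne2 (chr4:11190433-11204779) overlaps Ints8.

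Mitotic entry genes summed to 47.7, 61.1 and 61.1 CPM, with Cdc25b the main part at 33.2, 43.5 and 44.5. Cdc25b was higher in both mutant libraries than in WT by less than 1.5-fold (0.39, 0.15 to 0.63, and 0.42, 0.19 to 0.66). Cks2 followed at 7.15, 10.8 and 10.99 CPM (0.59, 0.09 to 1.12, and 0.62, 0.13 to 1.14), and without mitotic cells its ratios were 1.15 and 1.24. In female-called P27NULL cells the direction turned, with Cdc25b at 26.9 CPM (20.5 to 34.6) and Cks2 at 5.38 CPM (2.78 to 9.39), intervals that overlap those of WT, and S2CK passed 1.5-fold upward for both against these cells. Aurka, with 6, 12 and 24 UMIs, passed the fold upward in S2CK against P27NULL (0.66, -0.39 to 1.79) and against WT (0.65, -0.68 to 2.23), both across 0. Cdk1 had 17, 25 and 26 UMIs in 4, 16 and 18 cells (2.82, 2.06 and 1.69 CPM) and was lower in S2CK than in WT (-0.74, -1.68 to 0.23). Ccnb2 had 9, 15 and 9 UMIs and Ccnb1 16 and 9 in P27NULL and S2CK, both lower in S2CK than in P27NULL with intervals across 0. Ccna2 (5, 11 and 11 UMIs) could be compared between S2CK and P27NULL alone and stayed within the fold (-0.34, -1.69 to 1.01), and Plk1 (7, 4 and 6) was too low for any comparison.

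Chromosome and spindle genes had the largest sum of the role groups in each library, most of it from Kif22. It was 137 CPM in WT, 185 in P27NULL and 85.4 in S2CK, with P27NULL above WT by a log2 ratio of 0.44 (0.32 to 0.55) and S2CK below P27NULL (-1.12, -1.22 to -1.02). Kif22 (chr7:127027729-127042467) stood at 108 (100 to 117), 153 (146 to 160) and 72.3 (68.1 to 76.6) CPM, found in 426, 1129 and 788 cells. It was lower in S2CK than in P27NULL (-1.08, -1.19 to -0.98) and than in WT (-0.58, -0.73 to -0.44), and higher in P27NULL than in WT by less than 1.5-fold (0.50, 0.37 to 0.63). Kif22 was at 162 CPM in male-called and 115 CPM in female-called P27NULL cells, and S2CK against the latter gave -0.67 (-0.86 to -0.47). Its direction therefore held within female-called cells at a smaller size.

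Cenpf, a kinetochore protein, had 38, 81 and 15 UMIs (6.31, 6.66 and 0.975 CPM), and S2CK was lower than P27NULL (-2.77, -3.67 to -1.97) and than WT (-2.69, -3.66 to -1.80). Against female-called P27NULL cells the interval reached across 0 (-1.46, -2.91 to 0.19). Top2a, the topoisomerase that untangles chromosomes, was at 3.99, 5.10 and 0.910 CPM (S2CK against P27NULL -2.49, -3.44 to -1.63), which became -0.88 (-2.14 to 0.32) without mitotic cells. Prc1, the midzone cross-linker, was at 3.66, 2.96 and 0.585 CPM (-2.34, -3.58 to -1.26). Its 22 WT UMIs came from 4 cells and its 36 P27NULL UMIs from 15. Hmmr had 6, 19 and 4 UMIs (-2.59 for S2CK against P27NULL), nearly all in mitotic cells as above. All 4 genes were lowest in S2CK. In WT their UMIs came from 2 to 7 cells each, and in P27NULL from 43 cells for Cenpf, 22 for Top2a, 15 for Prc1 and 5 for Hmmr.

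Birc5 (survivin) had 17, 22 and 13 UMIs and was lower in S2CK than in P27NULL (-1.10, -2.21 to -0.04) and than in WT (-1.74, -2.90 to -0.61). Without the strongest cell of each library its ratios were -1.23 (-2.80 to 0.20) and -1.55 (-3.24 to 0.11), both across 0, the latter on 15 UMIs. Of the 9 members lower in S2CK than in WT, Ccne2, Cenpf and Top2a were then still counted, Rrm2, Birc5, Prc1, Ube2c and Mki67 had fewer than 20 UMIs, and Cdk1 turned to 0.41 (-1.09 to 2.21). Tpx2, which loads Aurora A onto the spindle, had 5, 24 and 17 UMIs, above the fold in P27NULL against WT (1.25, -0.17 to 3.00) and below it in S2CK against P27NULL (-0.84, -1.82 to 0.12), both across 0. Bub1b (7, 21 and 11 UMIs) was lower in S2CK than in P27NULL (-1.27, -2.47 to -0.15), as was Kif23 (8, 14 and 9 UMIs) with an interval across 0. Cenpa stood nearly level, at 3.66, 4.03 and 3.84 CPM, and so did Nusap1 at 2.66, 2.96 and 2.21. Kif11 (5, 5 and 6 UMIs), Cenpe (1, 11 and 7), Aurkb (5 and 4 in P27NULL and S2CK) and Bub1 (4 in P27NULL) were too low to be compared. Of the remaining pair, Ube2c was at 3.49, 3.37 and 1.43 CPM (S2CK against P27NULL -1.24, -2.05 to -0.46), and the proliferation marker Mki67 had 10, 11 and 13 UMIs, or 1.66, 0.905 and 0.845 CPM, with intervals across 0 in each comparison.

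**Figure D4:**
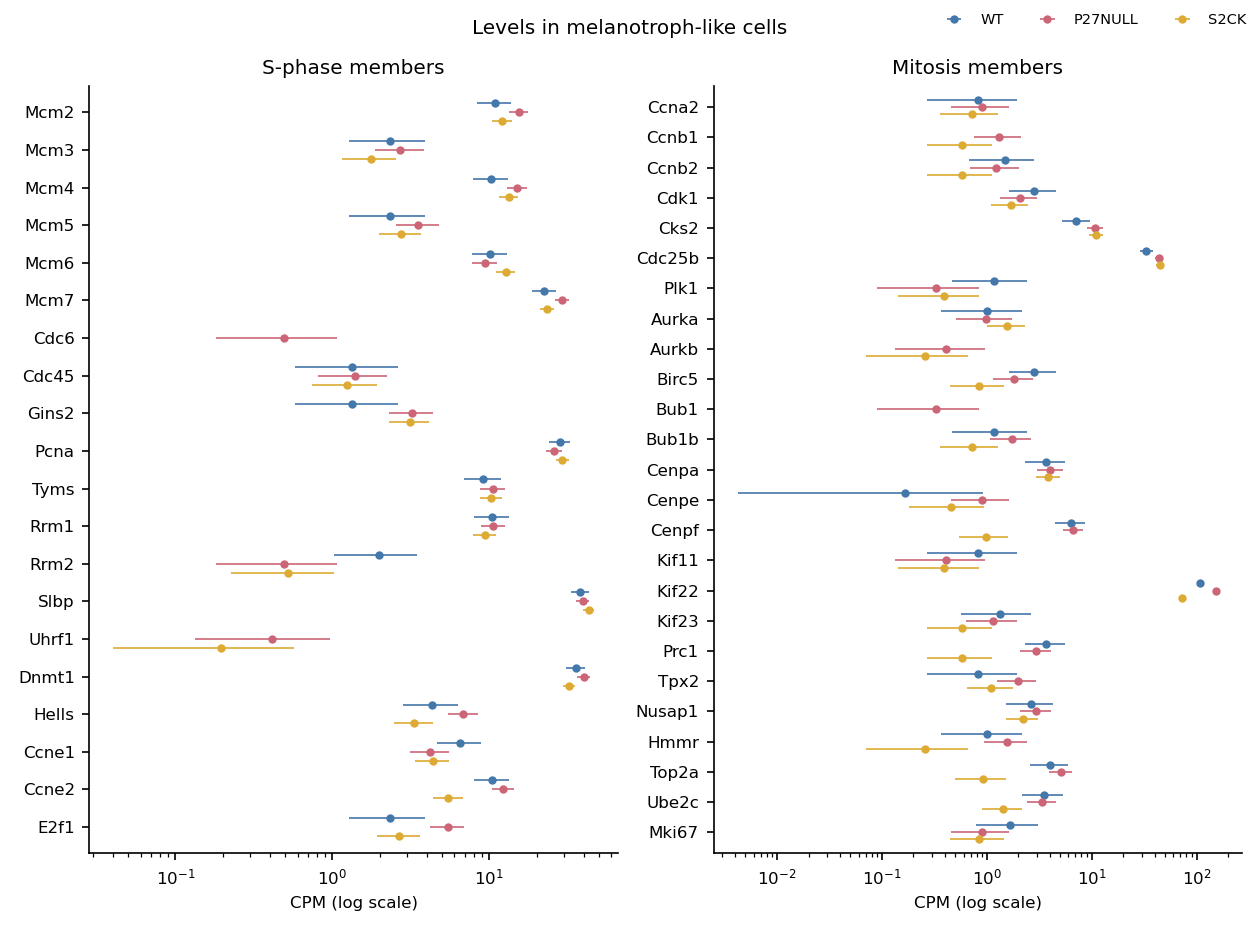
Level of each member in melanotroph-like cells of each library (CPM, log scale; points with exact 95% Poisson intervals; genes without a row or with no UMI are not drawn). S2CK lies lowest for Cenpf, Prc1, Top2a, Hmmr, Kif22 and Ccne2, while Pcna, Slbp, Tyms, Rrm1 and Cenpa nearly coincide.

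How much of these differences came from mitotic cells was read from the sums. The 10 mitotic genes summed to 28.2 CPM in WT, 29.1 in P27NULL and 11.2 in S2CK. In WT 136 of the 170 UMIs lay in its 3 mitotic cells and 86 in 1 of them, in P27NULL 202 of 354 in 8 cells and 115 in 1, and in S2CK 57 of 172 in 2 cells and 47 in 1. P27NULL and WT were level (0.04, -0.22 to 0.32) and S2CK was lower than P27NULL (-1.38, -1.65 to -1.11), with much of each sum in single cells. S2CK was lower than WT (-1.34, -1.65 to -1.02), at -0.78 (-1.19 to -0.36) without the strongest cell of each library and 0.40 (-0.16 to 0.997) without mitotic cells, so the direction against WT turned. Mitosis members together stood at 190, 250 and 149 CPM, so P27NULL stood above WT by a log2 ratio of 0.40 (0.30 to 0.50), and S2CK below P27NULL (-0.75, -0.83 to -0.67) and below WT (-0.35, -0.45 to -0.25). Leaving out the mitotic cells gave 0.53, -0.67 and -0.13, and leaving out Kif22 and Cdc25b instead gave 0.17 (-0.04 to 0.37), -0.75 and -0.59. Without Kif22 and Cdc25b the interval for P27NULL against WT thus reached 0. S-phase members stood at 208, 236 and 211 CPM, with ratios of 0.18 (0.09 to 0.28), -0.16 (-0.24 to -0.09) and 0.02 (-0.07 to 0.12), beside medians over all genes of 0.10, -0.14 and -0.03.

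Sex of the cells moved with these sums. In P27NULL melanotroph-like cells the mitosis members were at 266 CPM in male-called and 182 CPM in female-called cells (log2 0.55, 0.40 to 0.70), and the S-phase members at 247 and 187 CPM (0.40, 0.25 to 0.56). Cells called male had fewer UMIs, 2631 at the median against 3691, and a shallow female cell without an Xist UMI is called male. Set against female-called P27NULL cells, S2CK was lower for the mitosis members by less (-0.29, -0.44 to -0.13) and was higher for the S-phase members (0.17, 0.03 to 0.32), the opposite of the comparison with all cells. There 8 members were higher and 5 lower of 26 compared. The share over all genes was not formed for this comparison, so a general shift is not accounted for. P27NULL male-called cells against the male WT cells gave 0.49 (0.39 to 0.59) for mitosis and 0.25 (0.15 to 0.35) for S-phase members. Sex calls rest on P27NULL alone here, and the animals of each sex within it cannot be told apart.

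**Figure D5:**
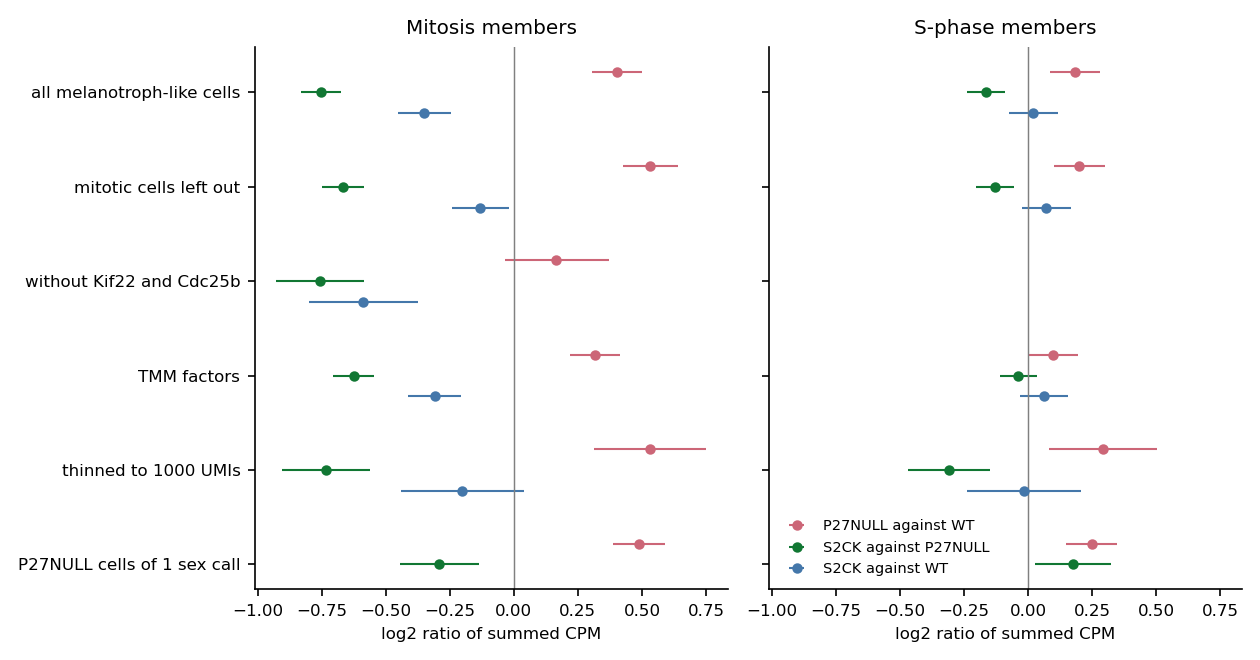
log2 ratio of the summed CPM of mitosis members (left) and S-phase members (right) in melanotroph-like cells for the 3 comparisons, under 6 choices of cells, genes or scaling (lines of the plot, 5 of them for S-phase members; bars are exact 95% intervals of counting error). The mitosis members of S2CK stay below P27NULL under all 6, from -0.75 to -0.29, while the S-phase members of S2CK against P27NULL cross from -0.16 to 0.17 when P27NULL is limited to female-called cells (bottom line).

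In SC-like cells the members were too sparse for most genes to be compared. The sums held 28, 19 and 41 UMIs of mitosis members (49.9, 50.1 and 62.3 CPM) and 120, 88 and 166 of S-phase members (214, 232 and 252 CPM) in the 3 libraries, and every interval of their ratios included 0. The 10 mitotic genes had 2, 7 and 8 UMIs, of which 5 of the 8 were in the single mitotic cell. For P27NULL against WT 5 members were compared, with Mcm6 higher (background 12.1%) and Dnmt1 lower (background 11.3%). For S2CK against P27NULL 6 were compared, with none higher (background 14.3%) and Mcm7 lower (background 19.4%). For S2CK against WT 7 were compared, with Mcm6, Pcna and Cdc25b higher (background 13.6%) and Dnmt1 and Kif22 lower (background 17.3%). Mcm6, with 8, 13 and 26 UMIs (14.3, 34.3 and 39.5 CPM), was the only member whose interval left 0, in S2CK against WT (1.47, 0.28 to 2.82). Kif22, so frequent in melanotroph-like cells, had 13, 3 and 7 UMIs here (23.2, 7.91 and 10.6 CPM). Slbp, Dnmt1, Pcna and Mcm7 had between 7 and 39 UMIs per library and no interval that left 0.

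Outside the endocrine and SC-like cells a few cells gave most of the mitotic UMIs. In T or NK-like cells the 10 genes summed to 189, 233 and 397 CPM, and 63 of the 86 UMIs of S2CK were in 1 cell. In endothelial-like cells they summed to 267, 810 and 484 CPM on 33, 42 and 57 UMIs, with 30, 41 and 56 of them in mitotic cells. In macrophage or microglia-like cells the values were 32.6, 268 and 136 CPM on 6, 58 and 30 UMIs. Ube2c and Birc5 were the mitotic genes with most UMIs in T or NK-like cells, Ube2c with 7, 7 and 29 and Birc5 with 6, 5 and 22. Pcna (4, 6 and 20 UMIs), Slbp (14, 11 and 8), Cks2 (5, 7 and 8), Cenpa (7, 8 and 14) and Kif22 (5, 15 and 6) were the other members with 20 or more UMIs there. In endothelial-like cells only Birc5 (5, 7 and 12), Cenpa (5, 3 and 12) and Ube2c (9, 4 and 20) reached 20 UMIs, and in macrophage or microglia-like cells only Pcna (4, 11 and 9), Slbp (13, 8 and 16) and Birc5 (0, 11 and 9). Corticotroph-like cells, with no mitotic cell, reached 20 UMIs for 5 members, Slbp (70.6, 66.9 and 60.6 CPM), Dnmt1 (45.7, 55.7 and 37.0), Pcna (31.2, 40.9 and 67.4), Kif22 (51.9, 59.5 and 23.6) and Mcm7 (18.7, 29.7 and 30.3), 4 of them S-phase members. Gonadotroph-like cells had 20 UMIs or more of Pcna, Slbp and Dnmt1, Pou1f1 lineage-like cells of Kif22 alone, and connective tissue-like and pituicyte-like cells of no member. Free RNA may bear on these low counts. Pax7, a melanotroph transcript, was at 37.4, 40.9 and 43.8 CPM in corticotroph-like cells, and Kif22 had a UMI in 9.76%, 11.7% and 8.86% of them at median depths of 2564.5, 2001 and 3288 UMIs, against 0%, 0% and 4.65% of endothelial-like cells (0 of 81, which allows up to 4.45%, 0 of 20, which allows up to 16.8%, and 2 of 43). The part of free RNA in the counts of these types was not tested.

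Further cell cycle genes, from the scoring lists in common use and outside the 45, were read in the same way in melanotroph-like cells. Of 27 other S-phase genes 20 were compared for P27NULL against WT, with 4 higher and 0 lower, and of 43 other G2/M genes 27 were compared, with 7 higher and 1 lower. For S2CK against P27NULL 2 of 21 S-phase genes were higher and 2 lower, and 2 of 28 G2/M genes were higher and 6 lower. For S2CK against WT the counts were 2 and 0 of 21, and 4 and 2 of 27. Median log2 ratios were 0.28 and 0.17, -0.19 and -0.29, and 0.15 and -0.04 in the same order, to be read beside the medians and background shares of all genes given above.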

How the data were processed

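Single cells of the intermediate lobe were profiled with the 10x Genomics Chromium 3' assay, 1 library for each of WT, P27NULL and S2CK. The authors deposited raw UMI counts per gene and cell barcode, after removing cells with few genes or a high mitochondrial share. Submitters' processing notes name Cell Ranger 3.0.2, STAR 2.5.1b, R 3.6.0, Seurat 3 and the mm10 build. The lowest cell held 502 UMIs in WT, 1005 in P27NULL and 1002 in S2CK. Columns without a sample numbered 0.

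Cells were clustered for each library with scanpy 1.11.5 and igraph 0.11.9 on Python 3.11.15 (2000 variable genes, 20 principal components, 20 neighbours, Leiden resolution 1). Members, other cell cycle genes, Cdkn1b, Sox2, Sox9, Pomc, Tbx19, immediate early genes and sex genes were left out of the clustering. A cluster was named when at least 3 markers of a type were detected at a relative level of 0.3 or more, leading any other type by 0.1 or more, and its top 10 genes did not go against the name. These cutoffs were picked with the data in view. They left 19, 304 and 316 cells unnamed, 291 and 295 of them in clusters of P27NULL and S2CK closest to melanotrophs, with no mitotic cell. Scrublet marked 9, 1 and 1 cells, so the caller had not worked and doublets were kept. Sex was called from Xist and Y-linked UMIs.

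Raw counts were summed by library and cell type and given as CPM of all UMIs, with exact 95% intervals (scipy 1.17.1, numpy 2.4.6, pandas 2.3.3). No test between genotypes was possible with 1 library each, and the samples are single pools, so the spread between animals is not known. The folds, thinning and mitotic rule were checked on simulated data. Alternatives covered cell and gene filters, doublet scores, depth, sex, clustering and scaling, including TMM factors of edgeR 4.0.16 on R 4.3.3. Those added after the data were seen were the sets without Ccnb1, without Cdc6 and Uhrf1 or without Kif22 and Cdc25b, the sums without the strongest cell of each library, the unnamed clusters counted as melanotroph-like, the 2-gene and 4-gene cutoffs for members in mitotic cells and the other settings of the S-phase cells.

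The members and lists were chosen with earlier results of these data known. Values are given for the 10 mitotic genes and for members with at least 20 UMIs in a cell type, and the others are accounted for by UMIs. Genes outside the list are the 15 with the largest ratio in mitotic melanotroph-like cells among those with 20 UMIs there and higher in each library with 3 or more such cells, of which 1 is not reported here. All 45 members matched RefSeq. Promoter windows came from RefSeq on GRCm38.p6.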

Additional observations from a re-analysis of the deposited data

Results flagged for a closer look

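Some log2 ratios between libraries had opposite signs in different cell types. Each type has 1 library per genotype, so these differences were not tested. For the 10 mitotic genes in S2CK against P27NULL, T or NK-like cells were at 0.77. Melanotroph-like cells were at -1.38, a gap of 2.15, macrophage or microglia-like cells at -0.98, a gap of 1.75, and endothelial-like cells at -0.74, a gap of 1.51. The T or NK-like value rests on 86 UMIs of S2CK, of which 63 were in 1 cell.

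For the same genes in S2CK against WT, melanotroph-like cells were at -1.34. Of the 170 UMIs of WT, 136 were in 3 mitotic cells and 86 in 1 of them, and the ratio was -0.78 without the strongest cell of each library and 0.40 (-0.16 to 0.997) without mitotic cells, the opposite direction. Macrophage or microglia-like cells were at 2.06, a gap of 3.40, on 6 UMIs of WT and 30 of S2CK. T or NK-like cells were at 1.07, a gap of 2.41, and endothelial-like cells at 0.86, a gap of 2.19. For all mitosis members in S2CK against WT, melanotroph-like cells were at -0.35, macrophage or microglia-like cells at 1.69, a gap of 2.04, and endothelial-like cells at 1.07, a gap of 1.42.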

How the results depend on the processing

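No paired analysis was possible because each group has only 1 sample. Of the alternatives to the shares, sums and counts, 219 stayed within the interval of the value given, or for counts within 1.5 times of it. Another 48 moved beyond this and 1 reversed. A reversal was counted only for log2 ratios whose interval kept a single sign. Other changes of sign were counted as close or as moved. For single genes these numbers were 228, 12 and 1. The cause was not tested.

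Background shares over all genes were formed for the main counts of members alone, and not for the counts below. Against female-called P27NULL cells alone, the S-phase sum of S2CK reversed to 0.17 and Hells to 0.57, the mitosis sum was -0.29, and 8 members were higher and 5 lower. Against WT, male-called P27NULL cells gave 1 member lower. With each cell thinned to 1000 UMIs, the share of mitotic cells in S2CK was 0.115%. The mitosis sum was then 0.53 in P27NULL and -0.20 in S2CK, each against WT, and the S-phase sum of P27NULL was 0.29 against WT and that of S2CK -0.31 against P27NULL. In thinned SC-like cells the mitosis sum of P27NULL was -2.52 against WT and that of S2CK 3.00 against P27NULL, and S-phase cells were 0%, 0.0722% and 0.0287% of WT, P27NULL and S2CK. With 4 or more S-phase genes these shares were 0.149%, 0.241% and 0.115%.

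With totals that leave out Pomc, mitochondrial and ribosomal protein genes, P27NULL stood at 0.30 against WT for the mitosis sum and 0.084 for the S-phase sum, S2CK at -0.62 and -0.035 against P27NULL, and 3 members were higher in P27NULL than in WT. With TMM factors the sums for S2CK against P27NULL were -0.63 and -0.037, and 3 members were higher in P27NULL than in WT. Without mitotic cells the mitosis sums were 0.53, -0.67 and -0.13 for P27NULL against WT, S2CK against P27NULL and S2CK against WT. Members lower in P27NULL than in WT then numbered 1, those higher and lower in S2CK than in P27NULL 2 and 9, and those in S2CK against WT 5 and 2. Of the other cell cycle genes 4 were lower in S2CK than in P27NULL, and 11 higher and 1 lower than in WT.

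Without Kif22 and Cdc25b the mitosis sum was 0.17 in P27NULL and -0.59 in S2CK, each against WT. Without the strongest cell of each library it was -0.22 for S2CK against WT, and 1 member was lower in P27NULL and 3 in S2CK than in WT. With no filter on UMIs, 6 members were lower in P27NULL than in WT and 15 in S2CK than in WT. At 50 or more UMIs, 4 were higher and 1 lower in P27NULL than in WT, 0 higher and 8 lower in S2CK than in P27NULL, and 2 lower in S2CK than in WT. Of the 35 members outside the rule, 32 had an interval above 1 in cells with 2 or more mitotic genes and 30 in cells with 4 or more. Depth limits rare types most, since 0 of 17 pituicyte-like cells of P27NULL allows a share of up to 19.5%.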
